A study of Mus musculus with 4 samples.

Results

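The genes described here are 10 genes of glycolysis and glucose uptake, *Hif1a*, *Slc2a1*, *Hk2*, *Pfkl*, *Pfkp*, *Aldoa*, *Pgk1*, *Eno1*, *Ldha* and *Pdk1*. They are a list of names that sets no threshold on their values, and all 10 are among the 15298 genes of the deposited table. The RNA came from peritoneal macrophages, sorted as CD11b+ F4/80+ Ly6G- cells, of 6-week-old female BALB/c mice. The study asked how microcurrent stimulation (MCS), a weak pulsed current passed through pads on the abdomen and back, changes these cells over the day. MCS was given under anesthesia for 15 min at 300 µA and 400 Hz, and control mice were handled in the same way with no current. The 4 libraries are control at Zeitgeber time (ZT) 2, control at ZT14, MCS at ZT2 and MCS at ZT14, where ZT2 is shortly after the end of MCS in the light phase and ZT14 is 12 h later in the dark phase. There is 1 library per condition, and how many mice each one came from was not given in the sources used here. No value therefore has a replicate check.

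Glycolysis converts glucose to pyruvate in the cytosol, and lactate dehydrogenase turns pyruvate into lactate, which restores the oxidized cofactor that the pathway needs. The oxygen-regulated transcription factor HIF1, whose alpha subunit *Hif1a* encodes, is known to raise transcription of glucose transporters and most glycolytic enzymes, and in macrophages it also does so after inflammatory stimuli without hypoxia. HIF1 is controlled largely through degradation of the alpha subunit protein, so its mRNA level is a poor guide to its activity.

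The values are reads scaled to the library (counts per 1e6 effective reads, CPM) as deposited. Each was a whole number of reads times a factor of its library, within 0.05 read, and the reads recovered in this way totaled between 8365590 and 9953243 per library. Ratios between libraries are given on the log2 scale after adding 0.1 CPM to each value, with the exact binomial (Clopper-Pearson) 95% interval of the ratio. These intervals cover counting error only and compare libraries, not groups of mice. A value is called higher or lower past counting error where its interval excludes no change. Summed CPM of 8 peritoneal macrophage markers lay between 25224 and 27878, and no library lacked any of them.

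Levels per length were compared with CPM divided by the length in kb of the longest coding transcript in GENCODE M21, averaged over the 4 libraries. *Aldoa* was highest at 243 CPM per kb, followed by *Eno1* at 173, *Ldha* at 154, *Pfkl* at 59.5, *Pgk1* at 45.4 and *Hif1a* at 32.0 CPM per kb. The least abundant were *Pfkp* at 11.8, *Slc2a1* at 11.5, *Hk2* at 11.4 and *Pdk1* at 5.76 CPM per kb. The order of *Pfkp*, *Slc2a1* and *Hk2*, of *Eno1* and *Ldha*, and of *Pfkl* and *Pgk1* differed between libraries, so these neighbors cannot be ranked. The enzymes of the lower steps of the pathway thus had more mRNA per length than the glucose transporter and hexokinase 2.

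Of the members, *Ldha* and *Pgk1* had the highest ZT14 ratios of MCS to control, *Hk2* had the widest range over the 4 libraries, and *Slc2a1* had the narrowest. The 250 bases before their RefSeq transcription starts (GRCm38.p6, the same assembly as mm10) are shown for that reason. They are written 5′ to 3′ on the gene's strand, with the core letters of a HIF response element (ACGTG or GCGTG) and of the E-box (CACGTG), on either strand, in capitals. The E-box, which CLOCK and ARNTL are known to bind, contains ACGTG on both strands. The first of 2 *Ldha* windows is chr7:46845554-46845803 (plus strand), that of *Pgk1* is chrX:106186850-106187099 (plus strand), that of *Hk2* is chr6:82774455-82774704 (minus strand) and that of *Slc2a1* is chr4:119108495-119108744 (plus strand).
Ldha: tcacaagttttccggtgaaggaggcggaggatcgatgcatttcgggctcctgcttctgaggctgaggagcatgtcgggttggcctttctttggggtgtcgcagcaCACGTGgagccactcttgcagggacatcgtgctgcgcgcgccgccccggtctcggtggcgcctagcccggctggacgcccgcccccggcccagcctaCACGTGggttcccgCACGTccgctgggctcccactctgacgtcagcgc
Pgk1: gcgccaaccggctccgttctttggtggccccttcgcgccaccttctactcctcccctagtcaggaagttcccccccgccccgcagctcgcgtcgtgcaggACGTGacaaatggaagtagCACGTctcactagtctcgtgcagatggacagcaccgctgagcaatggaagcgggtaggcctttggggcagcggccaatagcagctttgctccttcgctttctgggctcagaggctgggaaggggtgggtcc
Hk2: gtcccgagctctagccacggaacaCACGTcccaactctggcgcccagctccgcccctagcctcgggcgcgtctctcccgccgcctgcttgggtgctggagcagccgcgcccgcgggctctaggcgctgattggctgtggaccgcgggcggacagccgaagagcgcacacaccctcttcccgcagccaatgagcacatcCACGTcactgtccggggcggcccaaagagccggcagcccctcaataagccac
Slc2a1: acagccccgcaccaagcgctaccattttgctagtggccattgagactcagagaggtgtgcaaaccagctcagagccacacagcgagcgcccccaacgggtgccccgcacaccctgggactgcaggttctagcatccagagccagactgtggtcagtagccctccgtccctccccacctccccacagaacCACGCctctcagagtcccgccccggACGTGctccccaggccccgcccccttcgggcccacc

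The *Ldha* window held CACGTG at 145 and at 48 bases before the start and a further ACGTG at 34 bases. *Pgk1* had ACGTG at 150 and 131 bases and *Hk2* at 226 and 52 bases before the start. *Slc2a1*, with the flattest level of the 10 genes, also had matches, ACGTG at 36 and GCGTG at 61 bases. Over all members, ACGTG occurred in 6 of 10, GCGTG in 6 of 10, and CACGTG in 2 of 10, *Hif1a* and *Ldha*. Either ACGTG or GCGTG was found before at least 1 start of each of the 10 genes, some of which have several starts, in 14 of 16 windows in all. By window, ACGTG was in 7, GCGTG in 8 and CACGTG in 2 of the 16. Windows 2 and 3 of *Aldoa* overlap, as do windows 2 and 3 of *Eno1*, and each pair holds the same matches. These matches were thus counted more than once. The shares that follow are by window, so they do not compare with the counts by gene. Such short motifs are common before any start: among the 8597 windows of genes with a mean of at least 10 CPM, 22.5% held ACGTG, 45.9% GCGTG, 8.71% CACGTG, and 57.5% ACGTG or GCGTG. Over all 32851 windows the shares were 16.6%, 28.2%, 6.02% and 38.6%. A match describes the letters only and is not evidence of binding.

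*Hif1a* (chr12:73901375-73947530) stood at 154 CPM in control against 176 CPM in MCS at ZT2. At ZT14 the levels were 136 CPM in control against 139 CPM in MCS. It was higher at ZT2 than at ZT14 in both groups. It was also the member with the highest MCS ratio at ZT2, 0.19 (0.09 to 0.30), and its ratio at ZT14 was 0.03 (-0.08 to 0.14). *Slc2a1* (chr4:119108711-119137983), the glucose transporter GLUT1, had 37.0, 38.1, 39.4 and 36.0 CPM in control at ZT2, control at ZT14, MCS at ZT2 and MCS at ZT14. All 4 of its intervals included no change, with ends between -0.30 and 0.35 on the log2 scale.

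**Figure D1:**
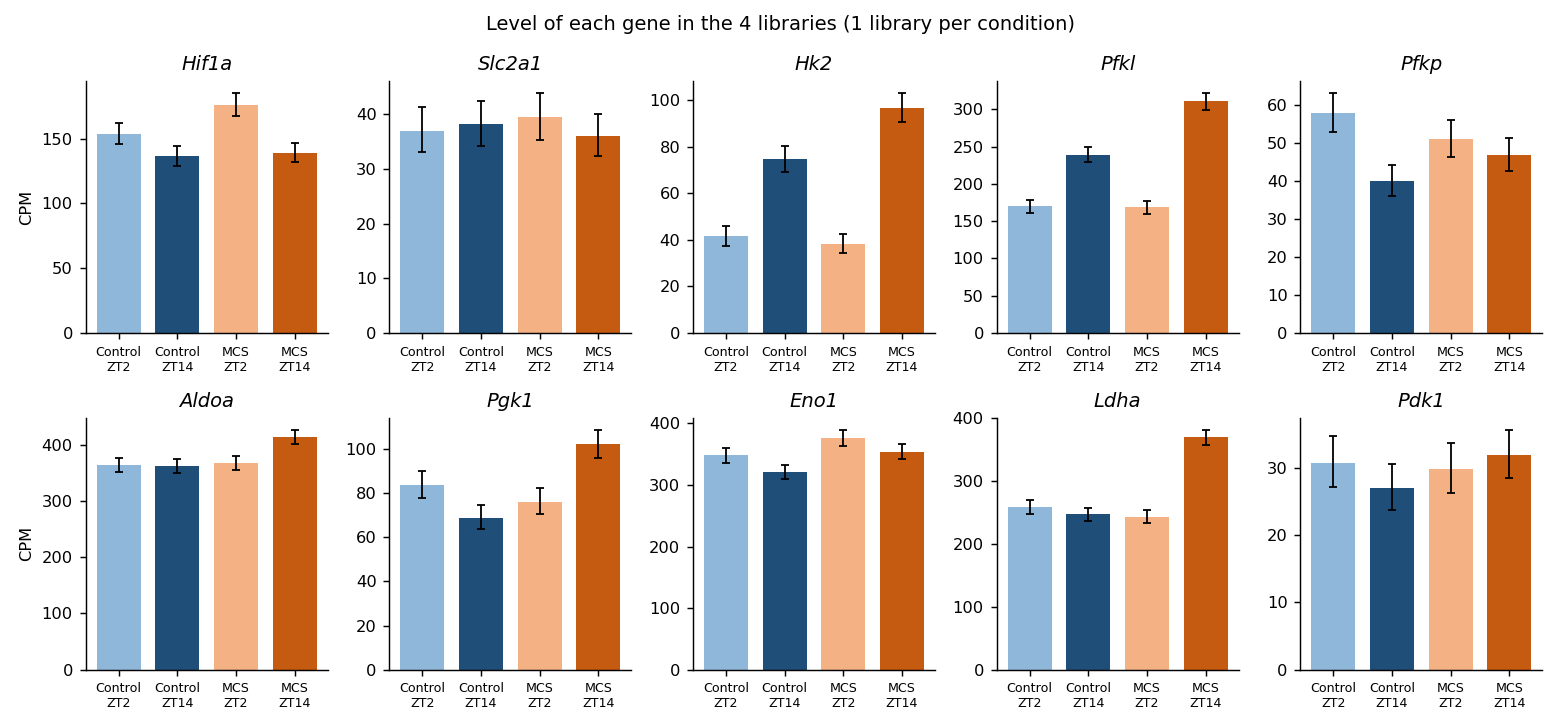
CPM of each of the 10 genes (linear axes from 0) in control at ZT2, control at ZT14, MCS at ZT2 and MCS at ZT14, as bars of 1 library each with the exact Poisson 95% interval of the recovered reads. *Ldha*, *Pgk1*, *Hk2* and *Pfkl* were highest in MCS at ZT14, with 369, 102, 96.6 and 310 CPM, while *Slc2a1* stayed between 36.0 and 39.4 CPM.

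*Hk2* (chr6:82725025-82774454, minus strand) encodes hexokinase 2, which traps glucose in the cell by phosphorylation. It had 41.5 CPM in control against 38.2 CPM in MCS at ZT2; at ZT14 it had 74.5 CPM in control against 96.6 CPM in MCS. Both ZT14 libraries lay above both ZT2 libraries, and MCS at ZT14 was the highest. *Pfkl* (chr10:77986947-78010083, minus strand), the liver-type subunit of phosphofructokinase, the main control step of the pathway, ran in a like manner, with 170 and 169 CPM at ZT2 and 239 and 310 CPM at ZT14 in control and MCS. *Pfkp* (chr13:6579768-6648777, minus strand), the platelet-type subunit of the same enzyme, went the other way in control, with 58.0 CPM at ZT2 against 40.1 CPM at ZT14. In MCS it had 51.2 CPM at ZT2 against 47.0 CPM at ZT14. *Pfkp* overlaps *Pitrm1* on the opposite strand over 748 bases of transcript. The strand setting of the authors' counting was not given in the sources used here, and *Pitrm1* itself had between 39.1 and 47.7 CPM.

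*Aldoa* (chr7:126795234-126800751, minus strand) encodes aldolase A, which splits the hexose into trioses. It had 363, 362 and 368 CPM in control at ZT2, control at ZT14 and MCS at ZT2, and 414 CPM in MCS at ZT14, which stood above the other 3 libraries. GENCODE M21 lists a second gene under this symbol at chr7:126800790-126809108, and the table does not tell them apart. *Pgk1* (chrX:106187100-106203699), phosphoglycerate kinase, an ATP-forming step, had 83.6, 69.0 and 76.2 CPM in the same libraries and 102 CPM in MCS at ZT14. *Ldha* (chr7:46841475-46855627), which makes lactate from pyruvate, had 258, 247 and 243 CPM and then 369 CPM in MCS at ZT14. MCS at ZT14 was the highest library for both. The other 3 libraries of *Ldha* lay close together, while those of *Pgk1* differed past counting error between the control libraries. *Pdk1* (chr2:71873224-71903858), a kinase that inactivates pyruvate dehydrogenase and so limits the conversion of pyruvate to acetyl-CoA, had 30.7, 27.0, 29.8 and 31.9 CPM, and all 4 of its intervals included no change.

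*Eno1* (chr4:150236721-150248879), enolase 1, had 348, 321, 376 and 354 CPM in control at ZT2, control at ZT14, MCS at ZT2 and MCS at ZT14. It shares 99.5% of 1736 aligned bases with *Eno1b*, which is listed separately at 337, 256, 251 and 437 CPM. Reads of such close copies are divided by estimation, so the separate values of *Eno1* are uncertain. Their sum was 685, 577, 628 and 791 CPM. The sum was highest in MCS at ZT14, as for *Ldha* and *Pgk1*, whereas *Eno1* alone was highest in MCS at ZT2. Close copies of *Ldha* and *Pgk1* named by GENCODE are not among the genes used here. Those of *Pgk1* include *Pgk1-rs7* and *Gm5537*, at 100% identity over 1255 and 1252 aligned bases. How reads of such copies were counted is not known for either gene.

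At ZT14, 12 h after MCS, 9 of the 10 genes had more mRNA in the MCS library than in the control library, and 7 of them exceeded counting error, with none lower. *Ldha* was 1.496-fold and *Pgk1* 1.48-fold as high, with log2 ratios of 0.58 (0.50 to 0.66) and 0.57 (0.42 to 0.71). *Pfkl* and *Hk2* each had a log2 ratio of 0.38, with intervals of 0.30 to 0.46 and 0.23 to 0.52. *Pfkp* had 0.23 (0.03 to 0.43), *Aldoa* 0.19 (0.13 to 0.26) and *Eno1* 0.14 (0.07 to 0.21), or 0.45 (0.40 to 0.51) summed with *Eno1b*, and the interval of *Pdk1* at 0.24 ran from -0.01 to 0.49. *Slc2a1* was the exception, at -0.08 (-0.30 to 0.14).

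The background at ZT14 has to be read beside these counts, since libraries of this depth differ past counting error in many genes. With a log2 mean above 0, 18.7% of 12368 genes were higher past counting error and 18.9% lower, and with a mean of at least 10 CPM, which fits these abundant genes better, 22.5% were higher and 23.4% lower. Against these shares stand 7 of 10 members higher and 0 of 10 lower, in a list chosen with earlier results of these data known. The median log2 ratio of the members was 0.23, against 0.00394 over all genes that passed the same minimum. *Ldha* and *Pgk1* had higher ratios than 96.8% and 96.6% of the genes of at least 10 CPM. No member passed the study's criterion of a log2 ratio above 1 in size, which 3.4% of genes passed, and 2 of 10, *Ldha* and *Pgk1*, were higher by more than 0.5, as were 8.68% of genes.

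Ratios at ZT14 also varied with transcript length over the whole table. The median of genes of at least 10 CPM ran from 0.14 in the shortest of 4 equal groups by length through 0.04 and -0.04 to -0.11 in the longest. *Ldha*, *Pgk1*, *Aldoa* and *Eno1* belong to the shortest group, and *Hk2* and *Pdk1* to the longest. Relative to the median of the 500 genes nearest in length, *Ldha* stood at 0.47, *Pgk1* at 0.45, *Hk2* at 0.45 and *Pfkl* at 0.40. *Aldoa* and *Eno1* then stood at 0.05 and 0.04, close to the median of genes of like length. For *Eno1* this depends on how reads were divided, since *Eno1b* alone stood at 0.66. The median of the members was 0.29 on this scale, which was chosen after the data were seen, and 9 of 10 remained above 0.

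**Figure D2:**
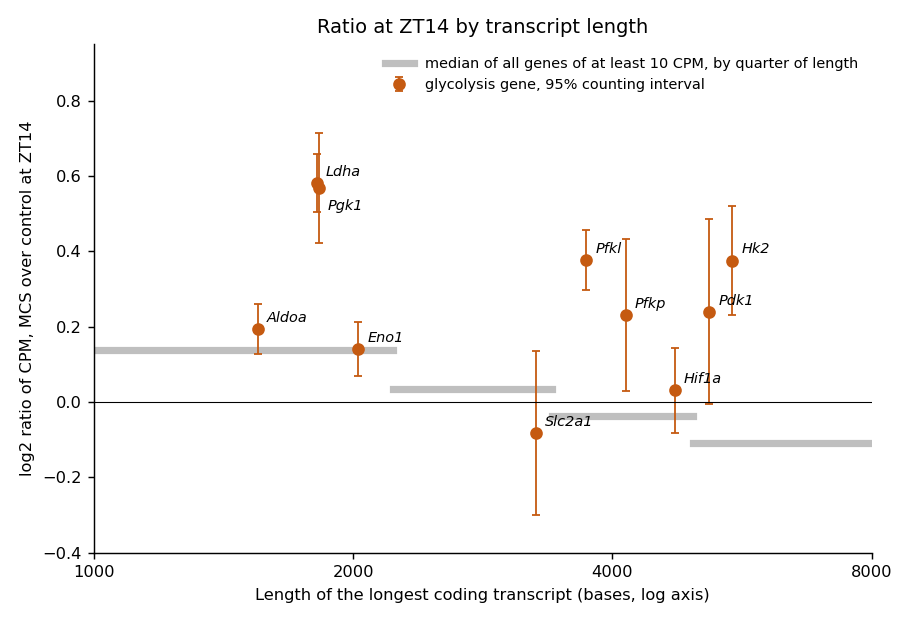
Log2 ratio of CPM, MCS over control at ZT14, of the 10 genes (points, 95% counting interval) against the length of the longest coding transcript in bases (log axis), with gray lines for the median of all genes of at least 10 CPM in each of 4 equal groups by length, cut at the axis limits. The lines fall from 0.14 to -0.11, *Aldoa* and *Eno1* lie near their line, and *Ldha*, *Pgk1*, *Pfkl* and *Hk2* lie above theirs.

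Markers of other cells differed between the libraries as well. Of 9 red blood cell markers, 6 are in the table, and their summed CPM was 3.23 in control and 36.7 in MCS at ZT2, and 1.32 in control and 112 in MCS at ZT14. Of these 6, *Hba-a2*, *Hbb-bt* and *Hbb-b2* were at 0 in both control libraries, *Hba-a2* was at 0 in MCS at ZT2, and none was at 0 in MCS at ZT14. *Siglecf*, the 1 of 4 eosinophil markers in the table, had 1.27 and 0.659 CPM in control and 5.80 and 14.1 CPM in MCS at ZT2 and ZT14. Summed B cell markers, 5 of 5, were 1279 CPM in control against 901 CPM in MCS at ZT14, and summed mast cell markers, 6 of 6, were 1183 and 952 CPM, with none at 0. At ZT2 the mast cell sum was 1818 CPM in control and 2240 CPM in MCS, so that its log2 ratio of ZT2 to ZT14 was 0.62 in control and 1.23 in MCS. The sum of 9 neutrophil markers was 0.84 higher on the log2 scale with MCS at ZT2. The part of these differences in the ratios of the glycolysis genes was not tested. In such bulk RNA, fewer cells of a type and less RNA per cell cannot be told apart.

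At ZT2, shortly after MCS, the same genes did not share a direction: 4 of 10 were above and 6 below control, and the median log2 ratio was -0.03, against 0.00484 over all genes. *Hif1a* at 0.19 and *Eno1* at 0.11 (0.04 to 0.19) were higher past counting error, where 11.5% of 12612 genes were. *Ldha* at -0.09 (-0.17 to -0.000195) was lower, where 11% of genes were. Among genes of at least 10 CPM, 13.7% were higher and 13.8% lower, so the members' 2 higher and 1 lower were near the background. *Eno1* summed with *Eno1b* was on the other side, at -0.13 (-0.18 to -0.07). No member passed a log2 ratio of 1, which 2.21% of genes passed.

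**Figure D3:**
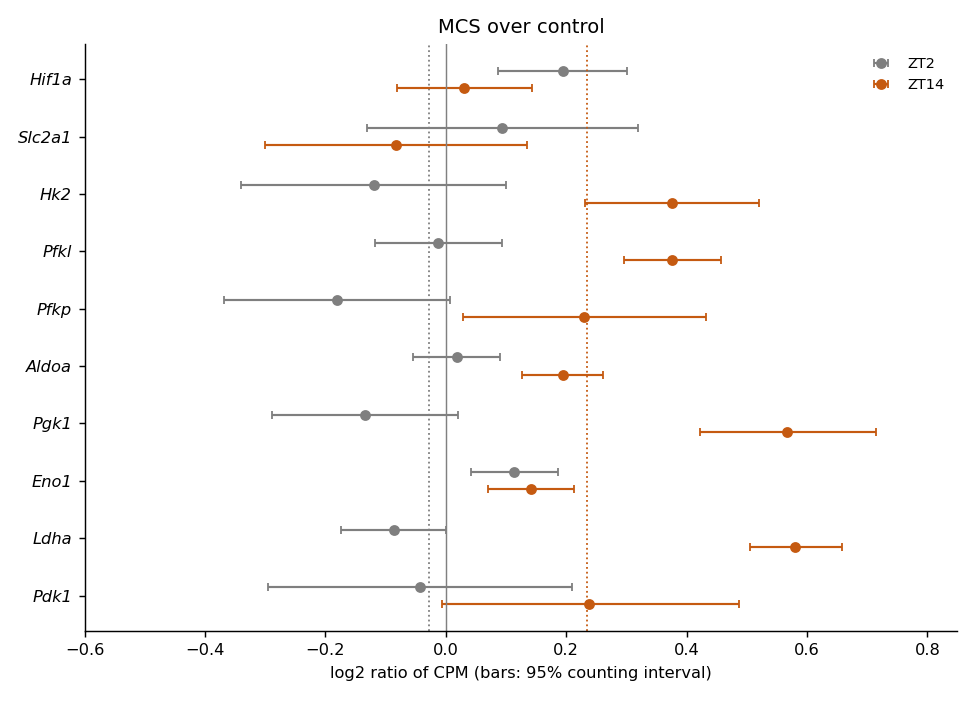
Log2 ratio of CPM, MCS over control, of the 10 genes at ZT2 (gray) and at ZT14 (orange), 1 library each, with 95% counting intervals as bars and the median of the 10 genes as a dotted line. The medians are -0.03 at ZT2 and 0.23 at ZT14, and the ZT14 ratio is the lower one for *Hif1a* and *Slc2a1*.

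The ratio of MCS to control was larger at ZT14 than at ZT2 for 8 of the 10 genes, with *Hif1a* and *Slc2a1* as the exceptions. The difference between both log2 ratios was 0.70 (0.49 to 0.91) for *Pgk1*, 0.67 (0.55 to 0.78) for *Ldha*, 0.49 (0.24 to 0.75) for *Hk2*, 0.41 (0.14 to 0.68) for *Pfkp* and 0.39 (0.26 to 0.52) for *Pfkl*, with intervals from counting error by the normal approximation. For *Hif1a* it was -0.16 (-0.32 to -0.01). The interval lay above 0 for 6 members, *Aldoa* at 0.18 being the other, and below 0 for 1. The share of all genes with such an interval was not computed, so these counts have no background to be read against. After the length median, 6 of 10 differences were above 0, with *Aldoa* at -0.01 and *Eno1* at -0.10. The median over the members was 0.34, against -0.01 over the genes of at least 10 CPM, of which 49.5% were above 0. MCS at ZT14 was the highest library of 6 members, *Hk2*, *Pfkl*, *Aldoa*, *Pgk1*, *Ldha* and *Pdk1*, as it was of 33.7% of genes of at least 10 CPM. With 1 library per condition the difference has no test.

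In control mice, the genes split between ZT2 and ZT14. At ZT2 the mice had just been anesthetized and handled, and at ZT14 this lay 12 h back. Time of day and time since handling therefore cannot be told apart in the time ratios. *Hk2* had less mRNA at ZT2 than at ZT14, with a log2 ratio of -0.84 (-1.03 to -0.66), and *Pfkl* had -0.49 (-0.59 to -0.40). *Pfkp* had 0.53 (0.33 to 0.73), *Pgk1* 0.28 (0.12 to 0.43), *Hif1a* 0.18 (0.06 to 0.29) and *Eno1* 0.12 (0.04 to 0.19) in the other direction. The isoforms of phosphofructokinase thus differed in direction between the control libraries. *Slc2a1*, *Aldoa*, *Ldha* and *Pdk1* did not exceed counting error.

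Past counting error were 4 of 10 members higher and 2 of 10 lower at ZT2 in control. The background was 13.6% higher and 15.9% lower of 12465 genes, and 14.7% and 20.5% among genes of at least 10 CPM. The median of the members was 0.09, against -0.00283 over all genes. By more than 0.5, 1 of 10 was higher, *Pfkp*, as were 9.37% of genes, and 1 of 10 lower, *Hk2*, as were 5.98%. No member passed a log2 ratio of 1, which 3.61% of genes passed. *Hk2* at -0.84 lay above only 0.846% of genes of at least 10 CPM.

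In MCS mice, *Hk2* was lower at ZT2 than at ZT14 by a log2 ratio of -1.34 (-1.53 to -1.16), 0.395-fold. *Pfkl* followed with -0.88 (-0.97 to -0.79), *Ldha* with -0.60 (-0.68 to -0.52), *Pgk1* with -0.42 (-0.57 to -0.28) and *Aldoa* with -0.17 (-0.24 to -0.10). *Hif1a* at 0.34 (0.23 to 0.45) and *Eno1* at 0.09 (0.02 to 0.16) were higher at ZT2, and *Eno1* with *Eno1b* was lower, at -0.33 (-0.38 to -0.28). *Slc2a1*, *Pfkp* and *Pdk1* did not exceed counting error. *Pgk1* was thus higher at ZT2 in control and lower at ZT2 in MCS.

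Past counting error were 2 of 10 members higher and 5 of 10 lower at ZT2 in MCS, where 21.9% and 22.2% of 12534 genes were, and 23.8% and 28.1% of genes of at least 10 CPM. The median was -0.13, against 0.00533 over all genes, and -0.08 after the length median. *Hk2* alone passed a log2 ratio of 1, as did 5.83% of genes, and 3 of 10, *Hk2*, *Pfkl* and *Ldha*, were lower by more than 0.5, as were 10.7%. The medians by length group ran from -0.16 in the shortest to 0.09 in the longest transcripts in this comparison, so *Hk2*, a long transcript, stood at -1.41 relative to genes of like length, and *Ldha* at -0.47. Each library enters 2 of the 4 comparisons, so the time ratios and the MCS ratios are not separate observations.

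**Figure D4:**
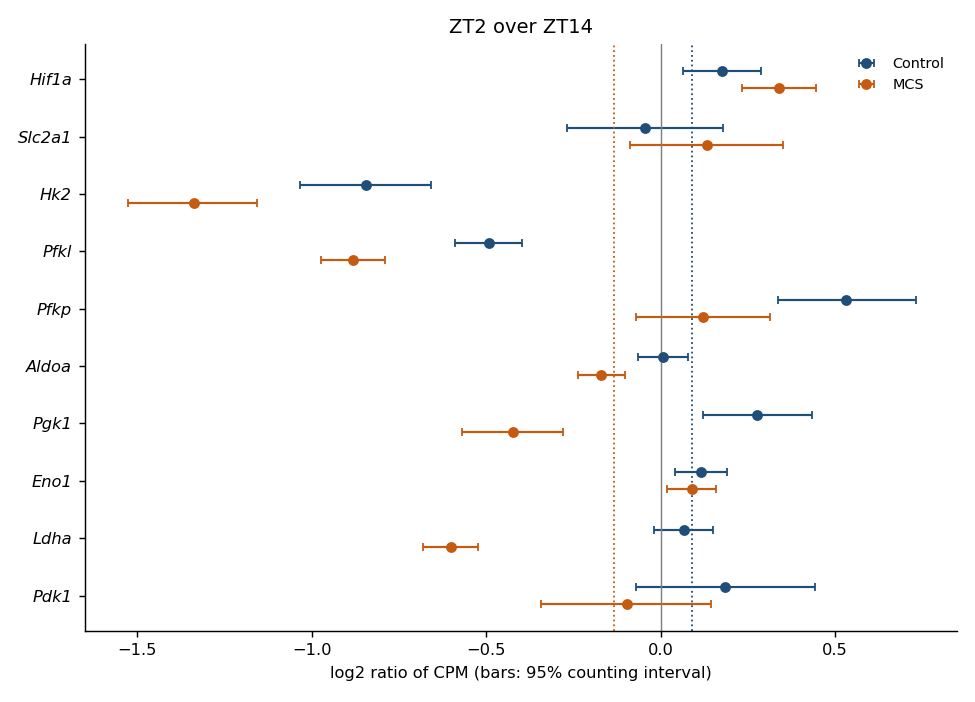
Log2 ratio of CPM, ZT2 over ZT14, of the 10 genes in control (blue) and MCS (orange), 1 library each, with 95% counting intervals as bars and the median of the 10 genes as a dotted line. *Hk2* lies farthest to the left in both groups, at -0.84 and -1.34, and *Pgk1* and *Ldha* lie below 0 only in MCS.

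A count test over all 4 libraries used edgeR's quasi-likelihood test with 2 additive terms, time and MCS, and 1 residual degree of freedom, so that MCS is taken to act alike at both times. For the time term, the control and MCS libraries of each time stood in for replicates. The p-values of this test therefore do not measure the spread between mice. For the time term it called *Hk2*, with a log2 ratio of ZT2 to ZT14 of -1.09 (edgeR, Benjamini-Hochberg adjusted p = 9.61e-05), and *Pfkl*, with -0.68 (edgeR, adjusted p = 0.0275). These 2 of 10 members compare with 2.38% of 12404 genes. Both were lower at ZT2 in both pairs of libraries. For the MCS term it called 0 of 10 members, and 0 at an unadjusted p below 0.05, against 0.193% of genes called and 304 genes at the unadjusted threshold. The largest MCS estimate was that of *Ldha*, 0.25, with an adjusted p of 0.999969 (edgeR). Since the MCS ratios of *Ldha* and *Pgk1* differ between times, this common effect does not test the difference at ZT14.

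The genes most like *Hk2* over the 4 libraries, by the root mean square difference of centered log2 CPM among genes of at least 10 CPM, were *Adap1* (0.053), *Tuba1c* (0.060), *Ptpn7* (0.11), *Ptges* (0.12) and *Mfsd12* (0.15). *Adap1* had 63.2, 105, 54.1 and 146 CPM in control at ZT2, control at ZT14, MCS at ZT2 and MCS at ZT14, the same order of libraries as *Hk2*. The measure is a description over 4 libraries, with no test.

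The other enzymes of the pathway were examined as a list of 18 genes, of which 15 had a log2 mean above 0 at ZT14. Of these, 11 had a ratio of MCS to control above 0 at ZT14, 6 past counting error, and 1, *Bpgm*, was lower past it, with a median of 0.27, or 0.16 after the length median. Over all genes, 18.7% were higher and 18.9% lower past counting error at ZT14. Triosephosphate isomerase *Tpi1* had 63.5 CPM in control against 89.8 CPM in MCS at ZT14, *Hk3* had 32.5 and 48.3 CPM, *Pkm*, the pyruvate kinase of macrophages, had 435 and 580 CPM, and *Gapdh* had 1001 and 1253 CPM. *Hk1*, the hexokinase of most tissues, had 146 and 144 CPM. At ZT2 the median of the list was -0.06, and *Gpi1* was higher and *Hk1* and *Tpi1* lower past counting error, where 11.5% and 11% of all genes were. Between times, the median was 0.11 in control and -0.17 in MCS. There 5 of 15 were lower and 0 higher at ZT2 past counting error, as were 22.2% and 21.9% of all genes. Among genes of at least 10 CPM, 28.1% were lower. The ZT14 median of 0.27 for these enzymes stands beside 0.23 for the 10 genes, from the same libraries.

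Among 10 hexose transporters, *Slc2a1* included, 5 had a log2 mean above 0 at ZT14, and 2 were higher with MCS past counting error, where 18.7% of all genes were. These were *Slc2a8*, with 11.5 CPM in control against 19.0 CPM in MCS, and *Slc2a6*, with 43.4 and 55.9 CPM. *Slc2a3*, the high-affinity transporter GLUT3, had 12.1 CPM in control against 18.0 CPM in MCS at ZT2, a log2 ratio of 0.56 (0.20 to 0.94), and 12.6 and 13.1 CPM at ZT14. The median of the list was 0.17 at ZT2 and 0.19 at ZT14, and -0.04 and 0.01 between times in control and MCS.

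The enzymes that make or remove the activator of phosphofructokinase, fructose 2,6-bisphosphate, did not follow the 10 genes. All 4 with a log2 mean above 0 were below 0 at ZT14 with a median of -0.18. Of them 2, *Pfkfb2* and *Tigar*, were lower past counting error, where 18.9% of all genes were. The median at ZT2 was -0.33 over 5 enzymes, and -0.24 with a mean of at least 10 CPM. Past counting error, *Pfkfb2* was higher with MCS at ZT2, at 0.28 (0.05 to 0.50), and *Pfkfb3* lower, at -0.33 (-0.46 to -0.20). Over all genes, 11.5% were higher and 11% lower. *Pfkfb3*, the isoform with the strongest activating balance, differed between ZT2 and ZT14. It had 126 CPM at ZT2 against 59.3 CPM at ZT14 in control, with a ratio of 1.08 (0.93 to 1.24), and 100 and 58.7 CPM in MCS, a ratio of 0.77 (0.62 to 0.93). *Pfkfb2* had 44.7 CPM in control against 37.9 CPM in MCS at ZT14. Thus *Pfkfb3* was higher at ZT2, when *Hk2* and *Pfkl* were lower. The list's medians between times were 0.03 in control and 0.07 in MCS, and *Pfkfb1*, past 1 in control, had 1.501 and 0.549 CPM with an interval that included no change.

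Of the lactate genes, *Slc16a3*, the lactate exporter MCT4, had 24.6 CPM in control against 23.0 CPM in MCS at ZT2, and 31.4 and 45.5 CPM at ZT14. Its MCS ratio at ZT14 was 0.53 (0.32 to 0.75), and that of ZT2 to ZT14 in MCS was -0.98 (-1.24 to -0.74), so it was highest in MCS at ZT14, as *Ldha* was. The other transporters were flatter, with 13.5 and 13.4 CPM for *Slc16a1* at ZT14. The list's median was -0.24 at ZT2, 0.06 at ZT14, 0.13 between times in control and -0.29 in MCS. At ZT2 0 genes of the list passed counting error, and with a mean of at least 10 CPM the median was -0.10.

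For the entry of pyruvate into the mitochondria, 13 genes were measured, and 3, *Mpc2*, *Pdhb* and *Pdk4*, were higher and 0 lower with MCS at ZT14 past counting error, with a median of 0.14. That share is near the 18.7% of all genes that were higher. *Mpc2*, a subunit of the mitochondrial pyruvate carrier, had 17.6 and 26.6 CPM. *Pdk4*, a kinase of the same family as *Pdk1* that is known to be induced when cells burn fatty acids, had 11.3 CPM in control against 13.9 CPM in MCS at ZT2. At ZT14 it was listed at 0 in control, and MCS had 8.90 CPM. Against the 3 reads that a count of 0 allows, MCS at ZT14 was at least 27.0-fold and control at ZT2 at least 34.3-fold higher. The neighboring *Pdk1* differed little between these libraries, at 27.0 and 31.9 CPM at ZT14. At ZT2 the median was -0.01 and 3 of 13 genes, *Dlat*, *Dld* and *Pdhx*, were lower past counting error, where 11% of all genes were. *Dld*, a subunit of pyruvate dehydrogenase, had 43.5 CPM in control against 31.9 CPM in MCS. Between times the medians were 0.05 in control and -0.18 in MCS.

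**Figure D5:**
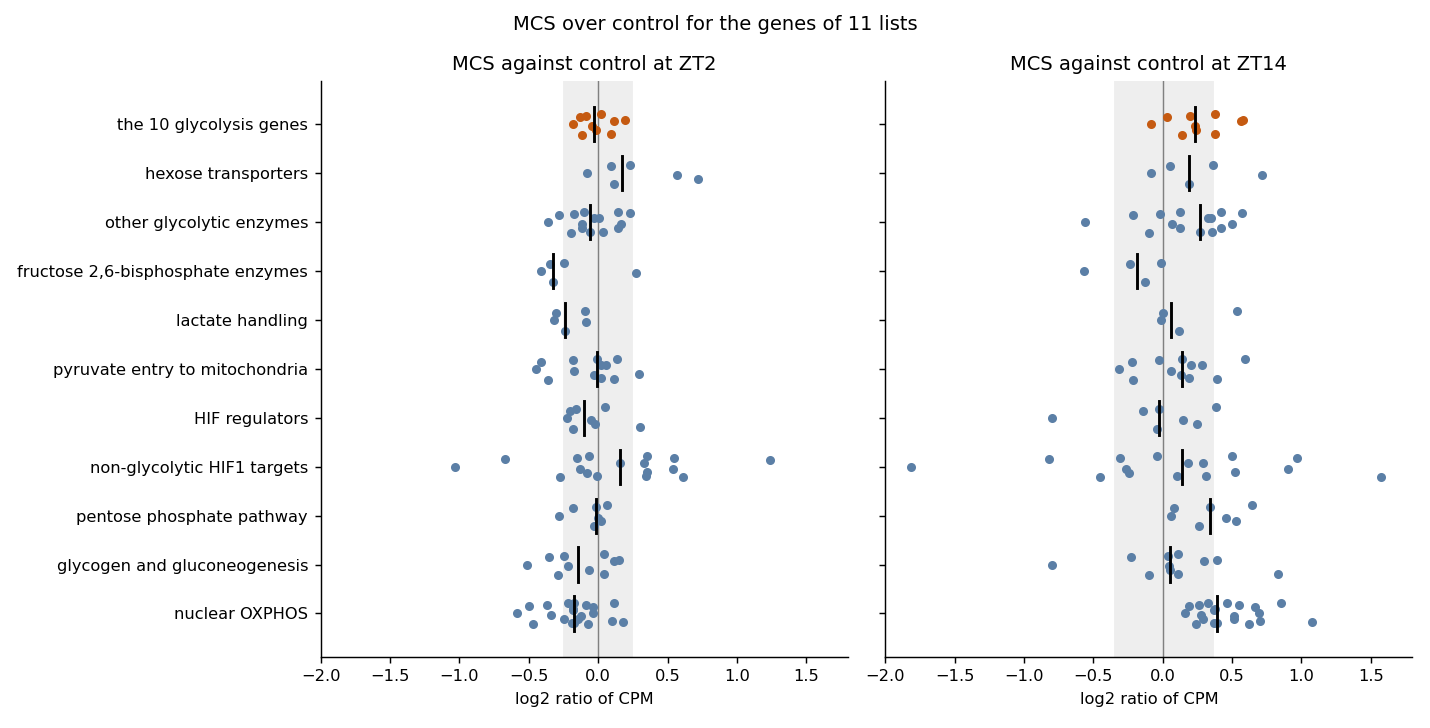
Log2 ratio of CPM, MCS over control, at ZT2 and at ZT14 for the genes of 11 lists with a log2 mean above 0 (points) and the median of each list (black line), with a gray band from the 10th to the 90th percentile of all genes of at least 10 CPM. At ZT14 the median is 0.23 for the 10 glycolysis genes and 0.39 for nuclear genes of oxidative phosphorylation, and *Pdk4*, listed at 0 in control at ZT14, lies beyond the axis.

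The regulators of HIF and its targets outside glycolysis were compared next, since HIF1 is known to act on most of the 10 genes. Of 8 regulators, *Epas1*, which encodes the related HIF2 alpha subunit, had 163 CPM in control against 201 CPM in MCS at ZT2. At ZT14 it had 256 CPM in control against 147 CPM in MCS. Its ratio of MCS to control was 0.30 (0.20 to 0.40) at ZT2 and -0.80 (-0.89 to -0.70) at ZT14, so it differed in the direction opposite to *Ldha* at both times. *Egln2*, a prolyl hydroxylase that marks HIF alpha subunits for degradation, had 54.7 and 71.4 CPM at ZT14. *Hif3a* had 5.54 and 5.45 CPM at ZT2 and 0.769 and 0.716 CPM at ZT14 in control and MCS. The medians of the regulators were -0.11 at ZT2, -0.03 at ZT14, and -0.04 and -0.14 between times in control and MCS.

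Of 18 HIF1 targets outside glycolysis, 16 had a log2 mean above 0 at ZT14, and their median was 0.14. Past counting error, 6 were higher with MCS and 4, *Adm*, *Ndrg1*, *Kdm3a* and *Mxi1*, lower, where 18.7% and 18.9% of all genes were. The targets did not share 1 direction. *Plin2*, which coats lipid droplets, had 273 and 347 CPM in control and MCS at ZT2, and 94.6 and 281 CPM at ZT14, which is a ratio of 1.57 (1.46 to 1.68). *Adm*, the vasodilator adrenomedullin, had 3.85 CPM in control against 1.023 CPM in MCS at ZT14, and *Ndrg1* had 18.1 and 13.2 CPM. *Ddit4*, an inhibitor of mTOR signaling, had 37.7 CPM in control against 23.5 CPM in MCS at ZT2, and 18.0 and 35.4 CPM at ZT14. *Vegfa* and *Hilpda* passed 1 at ZT2 in opposite directions, at 1.27 and 3.13 CPM and at 4.85 and 2.32 CPM in control and MCS. The median at ZT2 was 0.16, and those between times were 0.04 in control and -0.09 in MCS.

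Genes of neighboring pathways were higher at ZT14 as well. All 7 genes of the pentose phosphate pathway were above 0 at ZT14, 5 past counting error, with a median of 0.34, led by transaldolase *Taldo1* with 112 CPM in control against 175 CPM in MCS. At ZT2 their median was -0.02, and between times it was 0.08 in control and -0.30 in MCS. All 21 nuclear genes of oxidative phosphorylation in the table were above 0 at ZT14, 20 past counting error, with a median of 0.39, or 0.30 after the length median. Over all genes, 18.7% were higher past counting error at ZT14. The median of the 21 genes at ZT2 was -0.17, with 8 lower and 0 higher, where 11% and 11.5% of all genes were. Between times their median was 0.13 in control and -0.47 in MCS. *Cox7a2*, a cytochrome oxidase subunit, had 17.1 CPM in control against 36.3 CPM in MCS at ZT14. Higher values with MCS at ZT14 were therefore also measured outside glycolysis, at medians above that of the 10 genes. In the list of glycogen and gluconeogenesis, *Pygl*, glycogen phosphorylase, had 257 CPM in control against 458 CPM in MCS at ZT14, while the median of the list was -0.14 at ZT2, 0.05 at ZT14, and -0.05 and -0.27 between times in control and MCS. At ZT2 0 genes of this list passed counting error, and with a mean of at least 10 CPM its median was -0.01.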

How the data were processed

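RNA-seq was measured in 4 libraries, 1 per condition. The authors depleted ribosomal RNA, made directional libraries, trimmed reads with Trimmomatic 0.38, estimated gene counts with RSEM 1.3.0 and Bowtie 2, and normalized them with edgeR to the CPM values that were deposited. The submitters' processing notes name mm10. The annotation release, the expression filter and the strand setting are not given in the sources used here. Estimates by RSEM can be fractional, so recovered reads carry any rounding by the authors; 100% of values were whole within 0.05 read. In these libraries 1 read equaled between 0.102 and 0.116 CPM.

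Log2 ratios used a pseudocount of 0.1 CPM, and a gene entered the counts where the log2 of its mean CPM in both libraries was above 0. The comparisons of 2 libraries had no test. A count test over all 4 libraries in edgeR 4.0.16 used 12404 genes with at least 40 reads and an adjusted threshold of 0.05, and was chosen as an alternative to the ratios. Transcript lengths, positions and close copies (blastn 2.17.0, at least 95% identity over 200 bases) came from GENCODE M21, and promoter sequences from RefSeq. All 10 genes were matched in both. The members and lists, and 9 lists of cell type markers, were chosen with earlier results of these data known. Outside the 10 genes, list genes were named where they passed a log2 ratio of 1 or were the highest or lowest of their list with a mean of at least 10 CPM, and a few further list genes were named after their values were seen. Close matches were named for the member with the widest range. The alternatives were other pseudocounts, scalings, expression minimums, thresholds and intervals, and sums with close copies. The ratios, intervals and count test were tested on simulated data. The simulated counts had counting error only and the same MCS fold at both times. They therefore do not test how the methods act where mice vary or where the MCS ratio differs between times. Scripts ran in R 4.3.3 and Python 3.11.15, with scipy 1.17.1, numpy 2.4.6, matplotlib 3.10.9 and pandas 2.3.3.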

Additional observations from a re-analysis of the deposited data

Results flagged for a closer look

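*Ldha* differed between the time points in the direction of its ratio of MCS to control. It was higher with MCS at ZT14, 369 against 247 CPM, and lower at ZT2, 243 against 258 CPM, both past counting error, although the interval at ZT2 ended at -0.000195. The call at ZT2 was lost in 6 of 10 alternatives, among them each of the 4 other scalings, a 99% interval and the length median, with ratios between -0.09 and -0.04. The log2 ratio at ZT14 minus that at ZT2 was 0.67. *Pgk1* differed between the groups in the direction of its time ratio. It was higher at ZT2 than at ZT14 in control, 83.6 against 69.0 CPM, and lower in MCS, 76.2 against 102 CPM, both past counting error. The log2 ratio in MCS minus that in control was -0.70. Both differences rest on 1 library per condition, and the difference was not tested.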

How the results depend on the processing

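Leaving out a library was not possible, since each condition had 1. Over the alternatives, the median log2 ratio of the 10 genes ran from -0.04 to 0.02 for MCS against control at ZT2, from 0.22 to 0.29 at ZT14, from 0.08 to 0.11 for ZT2 against ZT14 in control and from -0.13 to -0.07 in MCS. The median at ZT2 thus changed sign. The median difference of the MCS ratio between times ran from 0.28 to 0.41. With a threshold of 0.5 in place of 1, 2 members passed at ZT14, 2 between times in control and 3 between times in MCS. Summed with *Eno1b*, *Eno1* changed sign for MCS against control at ZT2 (-0.13) and for ZT2 against ZT14 in MCS (-0.33), which follows from the values of *Eno1b*. Relative to genes of like transcript length, an alternative chosen after the data were seen, *Aldoa* went from -0.17 to 0.000306 for ZT2 against ZT14 in MCS. Of the ratios of single members, 6 changed sign under an alternative, the 3 above and 3 that lay within counting error of 0. The number of members past counting error ran from 2 to 3 at ZT2, and from 6 to 7 in each of the other comparisons. Depth limited *Slc2a1* and *Pdk1* most, with at most 352 reads in a library, and counting error is the only error known for any value here.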

Other observations

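Clock genes were listed as a reference for time of day, which cannot be told apart from time since handling in these ratios. In control, 5 of 8 were lower at ZT2 than at ZT14 by more than 1 on the log2 scale, led by *Per2* with 5.66 CPM at ZT2 against 84.6 CPM at ZT14. Higher at ZT2 by more than 1 were 2 of 8, *Per1* with 157 and 70.9 CPM and *Arntl* with 32.3 and 14.7 CPM. The median over both directions was -2.17. The paper names ZT14 as the time when *Per1* mRNA peaks in macrophages, whereas the control library had less *Per1* at ZT14 than at ZT2. In MCS the median was -0.80, with *Per3* at 7.42 and 39.3 CPM. For MCS against control the median was 0.08 at ZT2, where 7 of 8 were above 0. Past counting error, 1 was higher, *Per2* at 0.77 (0.26 to 1.32), and 1 lower, *Per1* at -0.41 (-0.53 to -0.29). Over all genes, 11.5% were higher and 11% lower. At ZT14 the median was -0.78, with 2 higher past counting error, *Arntl* and *Per1*, and 5 lower, where 18.7% and 18.9% of all genes were. There *Nr1d1* had 26.0 CPM in control against 8.38 CPM in MCS, while *Hk2*, the glycolysis gene with the widest range, had 74.5 and 96.6 CPM.

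For markers of the other cell types, summed CPM was between 111 and 238 for 9 of 10 neutrophil markers in the table, with *Ly6g* not among them, between 17.8 and 43.5 for 6 T and NK cell markers, between 2.75 and 9.40 for 5 mesothelial markers and between 4.06 and 19.7 for 5 fibroblast markers.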
